A study of Saccharomyces cerevisiae with 3 samples.

Results

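The genes described here are those of histidine synthesis in Saccharomyces cerevisiae, HIS1 to HIS7, together with GCN4 and GCN2, the regulators of the general control of amino acid synthesis. They were taken by gene symbol, not by their measured values. Of the 9 genes, 8 had a named probe among 5203 named genes, and HIS3 (YOR202W) was not analysed here. A value on all 3 arrays was present for 6 of them, HIS1, HIS2, HIS4, HIS5, HIS7 and GCN4. HIS6 and GCN2 had values on 2 arrays each.

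Strain S288C, the standard laboratory yeast, was grown at 25 C in rich glucose medium (YPD), and 100 ml of exponential culture received fluazinam, a fungicide known as an uncoupler of oxidative phosphorylation, at 1.5 uM for 2 h. Untreated cells of the same strain, medium and temperature were grown for the same 2 h without the compound. PolyA RNA of treated cells, labelled with Cy5, and of untreated cells, labelled with Cy3, was hybridised together on each of 3 arrays from independent biological samples. The same dye marked treated cells on every array, so a dye effect of a single gene and the treatment cannot be told apart.

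Histidine is built from phosphoribosyl pyrophosphate (PRPP) and ATP in a linear pathway. When cells lack an amino acid, uncharged tRNA activates the protein kinase Gcn2, which phosphorylates the alpha subunit of the initiation factor eIF2. General translation then slows while translation of GCN4 mRNA increases, and the Gcn4 protein activates transcription of genes of many amino acid pathways, those of histidine among them. Gcn4 is controlled largely at translation and by protein turnover, neither of which an array of mRNA reads. Several histidine genes, HIS1, HIS4 and HIS7 among them, are also known targets of Bas1 and Pho2, the activators of purine synthesis genes.

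The deposited log ratios were taken as log2 with treated cells in the numerator. Neither the base nor the direction was stated; the direction is likely, since treated RNA is labelled Cy5 in the first channel, and if it were turned each higher value below would be lower. A ratio does not tell which channel differed. On replicates 1 to 3, 4463, 5245 and 4865 of 6272 probes carried a value, and the 3802 features (genes, or probes with no gene name) measured on every array entered the test. Array medians lay within 0.0929 of 0. Pearson's r across features, which are not independent replicates, was 0.629 for replicates 1 and 3, but 0.507 and 0.434 for replicate 2 against each of them. Replicate 2 stood apart for amino acid genes, so values below are given per array or with and without it.

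The first question was how transcripts of the pathway differed between treated and untreated cells. On replicate 2, all 5 histidine genes with a value on all arrays were higher in treated cells, HIS5 and HIS4 by 10.5-fold and 8.07-fold. On replicates 1 and 3, HIS1, HIS4 and HIS7 were lower in treated cells. HIS2 was the only one of the 5 with 1 sign on all arrays, which 52.3% of all features had, and its values were above 0. The median of the 5 genes was -1.05, 1.87 and -0.71 on replicates 1 to 3, where the median of all features tested was 0.05, -0.07 and -0.03, and the median of their means over arrays was 0.04, against -0.0049 for all features.

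**Figure D1:**
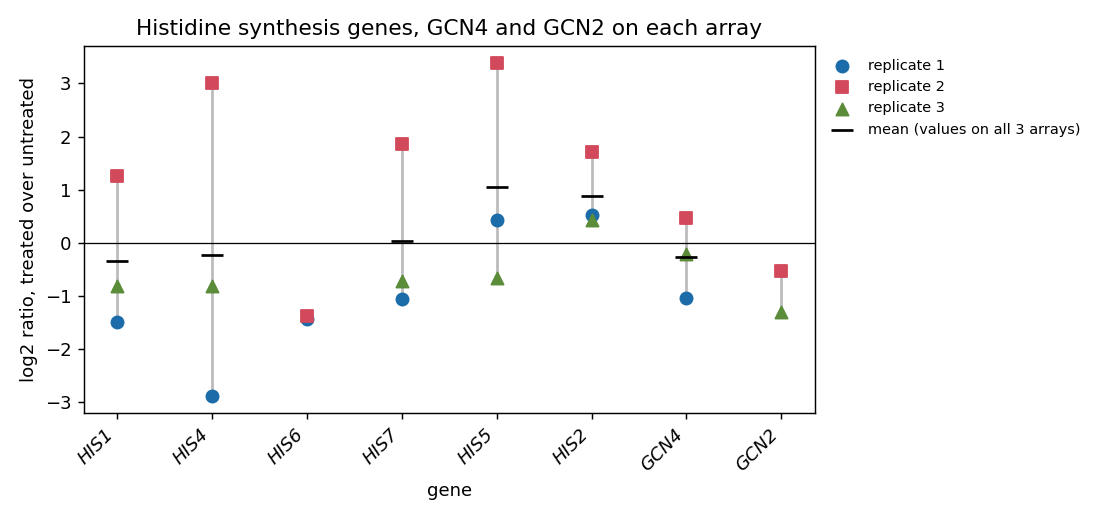
Log2 ratio of treated over untreated cells (vertical axis) for each measured gene in pathway order, then GCN4 and GCN2; symbols are the 3 arrays, grey lines join the lowest and highest value, and black bars are means of genes with values on all 3 arrays. Replicate 2 is the highest of the 3 for HIS1, HIS4, HIS7, HIS5, HIS2 and GCN4, while HIS6 is at -1.43 and -1.37 on replicates 1 and 2.

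HIS1 (YER055C) encodes the ATP phosphoribosyltransferase that commits PRPP and ATP to histidine and is inhibited by the end product. Its log2 ratios were -1.49, 1.27 and -0.80 on replicates 1 to 3. Replicate 2, the array with the positive value, stood 2.41 above the mean of the other two. The mean was -0.34 ± 1.44 (SD, n = 3), with a 95% confidence interval of -1.53 to 0.85, and did not pass the limma test (adjusted p = 0.694).

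HIS4 (YCL030C) encodes a multifunctional enzyme that acts near the start of the pathway and, as histidinol dehydrogenase, at its end. Its log2 ratios were -2.88, 3.01 and -0.81 on replicates 1 to 3. On replicate 1 it was the 31st lowest of 4379 features and on replicate 2 the 31st highest of 5152. The mean of -0.23 ± 2.99 (SD, n = 3; 95% interval -2.47 to 2.01; limma adjusted p = 0.895) lay near 0, as values of opposite sign averaged out. The SD of HIS4 was the second largest of 3802 features, after that of ARO3 (3.06) and before that of ARG1 (2.97), 2 further genes of amino acid synthesis singled out after their values were seen. The median SD over all features was 0.461.

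HIS6 (YIL020C) encodes the isomerase that follows the early steps of His4. It was at -1.43 on replicate 1 and -1.37 on replicate 2, with no value on replicate 3. It was the single measured histidine gene below 0 on replicate 2, where it ranked 4991 of 5152 from the top. With genes that had values on 2 arrays admitted to the fit, its mean was -1.40 and did not pass (limma adjusted p = 0.0699). The values of HIS6 changed when the median of its inferred print sub-grid was subtracted, to -0.52 and -0.50 on replicates 1 and 2. The part of position on the array in the result was not tested further.

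HIS7 (YBR248C) encodes imidazole glycerol phosphate synthase, whose reaction also releases AICAR, an intermediate of purine synthesis. Its log2 ratio was -1.05, 1.87 and -0.71 on replicates 1 to 3. The mean was 0.04 ± 1.59 (SD, n = 3; 95% interval -1.26 to 1.33; limma adjusted p = 0.972). Like HIS1 and HIS4, it was positive on replicate 2 alone.

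HIS5 (YIL116W) encodes histidinol-phosphate aminotransferase. Its log2 ratios were 0.43, 3.39 and -0.67, and on replicate 2 it was the 20th highest of 5152 features. The mean of 1.05 ± 2.10 (SD, n = 3; 95% interval -0.58 to 2.68) did not pass (limma adjusted p = 0.348). It rested on replicate 2, without which the mean was -0.12.

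HIS2 (YFR025C) encodes histidinol-phosphatase. Its log2 ratio was 0.52, 1.71 and 0.44 on replicates 1 to 3, so it was above 0 on every array and highest on replicate 2. The mean was 0.89 ± 0.71 (SD, n = 3), with a 95% interval of 0.11 to 1.68, and did not pass after adjustment over all features (limma adjusted p = 0.127). Its SD ranked 885 of 3802, while those of HIS1, HIS4, HIS5 and HIS7 ranked 102, 2, 22 and 70.

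Of the regulators, GCN4 (YEL009C) was at -1.04, 0.48 and -0.20 on replicates 1 to 3. Its mRNA was highest on replicate 2 and lowest on replicate 1, an order shared with HIS1, HIS4 and HIS7 but not with HIS5 and HIS2, and spanned 1.52 log2 units against 5.90 for HIS4. The mean was -0.25 ± 0.76 (SD, n = 3; 95% interval -1.06 to 0.55; limma adjusted p = 0.657), and after sub-grid medians were subtracted it turned to 0.18 (0.724). GCN2 (YDR283C) had no value on replicate 1 and was at -0.53 and -1.30 on replicates 2 and 3, with a mean of -0.91 over the 2 arrays (limma adjusted p = 0.174). Unlike GCN4 and the histidine genes other than HIS6, GCN2 was below 0 on replicate 2. After sub-grid medians were subtracted, GCN2 was at -0.13 and -1.16 on replicates 2 and 3.

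With all arrays, 0 of the 6 genes passed the limma test with Benjamini-Hochberg adjustment at 0.05, where 7.86% of all features did. At an unadjusted p under 0.05 there was 1, HIS2, where 29.7% of all features were; with no moderation there were 0, where 16.0% of all features were. Without replicate 2, 2 of the 6 were lower in treated cells, against 9.97% of all features in that direction. These were HIS4 (mean -1.85, limma adjusted p = 0.00532) and HIS1 (mean -1.14, limma adjusted p = 0.0466). In either direction 17.3% of all features passed without replicate 2. Without replicate 1 or without replicate 3, 0 of the 6 passed, beside 0.289% and 0% of all features, and the mean of HIS4 was 1.10 and 0.06. A miss at these spreads does not show that the genes were unchanged, as the 95% intervals of all 6 reached past 1 log2 unit on at least 1 side.

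The split between arrays was shared by 3 of the 5 histidine genes with a value on all arrays. HIS6, with no value on replicate 3, was at -1.43 and -1.37 on replicates 1 and 2. HIS1, HIS4 and HIS7 were above 0 on replicate 2 and below 0 on both other arrays, as was GCN4, a pattern held by 7.10% of all features. After sub-grid medians were subtracted, GCN4 was at -0.56, 0.70 and 0.38 on replicates 1 to 3 and no longer held this pattern. HIS1, HIS4 and HIS7 still held it. All 5 histidine genes were at least 1 log2 unit higher on replicate 2 than on either other array, where 5.39% of all features were; GCN4 was not. After subtraction of sub-grid medians 4 of the 5 were, HIS2 then being at 1.70 on replicate 2 and 0.72 on replicate 3. Replicate 2 minus the mean of replicates 1 and 3 was 4.86 for HIS4, 3.51 for HIS5, 2.75 for HIS7, 2.41 for HIS1, 1.23 for HIS2 and 1.09 for GCN4. Over all features these differences ranked 3, 11, 39, 53, 241 and 306 of 3802. Both counting rules were chosen after the values were seen and are given as descriptions.

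**Figure D2:**
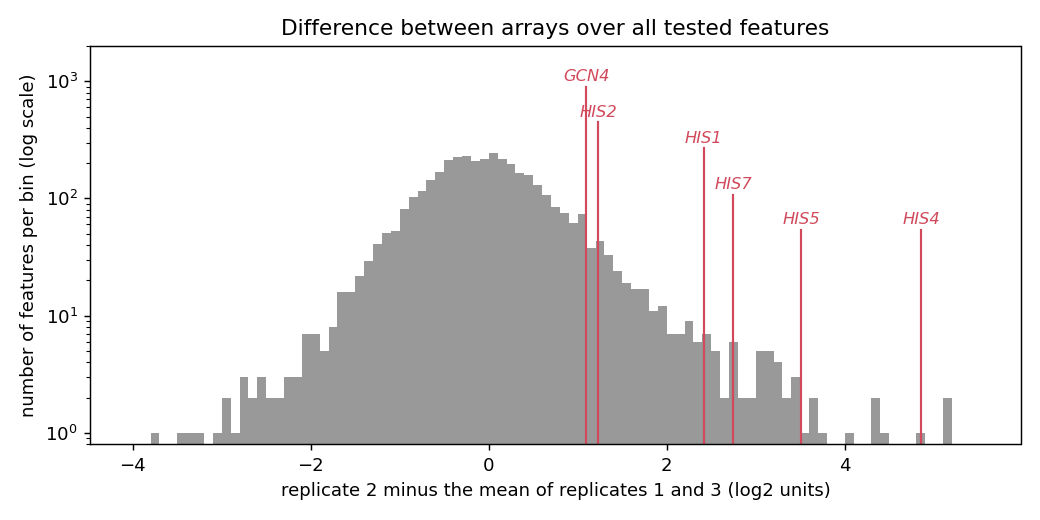
Histogram of the difference between replicate 2 and the mean of replicates 1 and 3 (log2 units, horizontal axis) over 3802 features, with the number of features per bin on a log scale; red lines mark the histidine genes and GCN4. HIS4 at 4.86 and HIS5 at 3.51 lie in the right tail, and HIS2 at 1.23 and GCN4 at 1.09 on its shoulder.

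The genes next examined make the precursor of histidine, take histidine up, load it on tRNA or regulate its synthesis. The list also held ADE3, ADE16 and ADE17, of one-carbon and purine metabolism. Of 12 listed, 11 were measured and 0 passed the test (limma, adjusted over all features), with 3 at an unadjusted p under 0.05 (29.7% of all features) and 1 with no moderation (16.0%). None was 1 log2 unit higher on replicate 2 than on both other arrays, and the list's array medians were -0.59, -0.27 and -0.49. The PRPP synthetase genes, whose product His1 consumes, were below 0 on most arrays, and none passed. PRS1 was at -2.28, -0.68 and -0.49 on replicates 1 to 3 (limma adjusted p = 0.106) and PRS3 at -1.96, -0.54 and -0.65 (0.101). PRS2 was at -0.25, 0.33 and -1.07 (limma adjusted p = 0.546), PRS4 at -0.88, 0.10 and -0.28 (0.457) and PRS5 at -0.59, -0.50 and 0.17 (0.508). With all arrays and sub-grid medians subtracted, the means were -1.28 for PRS1 (limma adjusted p = 0.0547) and -0.62 for PRS3 (0.237). Without replicate 2, PRS1 and PRS3 were lower, at means over replicates 1 and 3 of -1.38 (limma adjusted p = 0.0274) and -1.31 (0.0291). In that fit 9.97% of all features passed downward.

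HTS1, which encodes the histidyl-tRNA synthetase, was at -0.76, -0.47 and 0.17 (limma adjusted p = 0.451). HIP1, the high-affinity histidine permease gene, was above 0 on all arrays at 0.46, 0.15 and 0.81 (limma adjusted p = 0.285). The activator gene BAS1 was at 0.35, 0.96 and 0.38 (limma adjusted p = 0.219), and its partner gene PHO2 at 0.64, -0.06 and -0.92 (0.855). ADE16, whose product uses AICAR, was at -0.78, -1.10 and -0.81 (limma adjusted p = 0.0747), and ADE3, a one-carbon enzyme gene, at 0.69, -0.27 and -1.34 (0.648). HTS1 and HIP1 thus had their highest value on replicate 3, and replicate 2 was the highest for BAS1 but by less than 1 log2 unit.

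Most of the other listed genes of general control act on Gcn2, eIF2 or Gcn4. Of 20 listed, 14 had values on all arrays; SUI2 fell and 13 did not pass (4.47% of all features passed downward). At an unadjusted p under 0.05 there were 6 of the 14 (29.7% of all features). SUI2 encodes the alpha subunit of eIF2, the substrate of Gcn2, and was at -1.56, -1.65 and -1.34, a mean of -1.52 ± 0.16 (SD, n = 3; limma adjusted p = 0.0277). The 3 arrays lay close together. The call was lost without replicate 1 (limma adjusted p = 0.0870) and without replicate 3 (0.0677), where 0.289% and 0% of all features passed. SUI3, the beta subunit gene, was at -2.51, -1.67 and -0.42 (limma adjusted p = 0.0651) and GCD11, the gamma subunit gene, at -1.57, -1.10 and -0.46 (0.0786). SUI3, which missed the threshold with all arrays, passed without replicate 2 (mean -1.46, limma adjusted p = 0.0242), where 9.97% of all features passed downward.

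Genes of eIF2B, the exchange factor that phosphorylated eIF2 inhibits, did not pass. GCD1 was at -1.04, -0.57 and -0.75 on replicates 1 to 3 (limma adjusted p = 0.101) and GCD7 at -0.39, -0.45 and -0.42 (0.301). GCD6 was at -1.84, -2.51 and 0.15 (limma adjusted p = 0.112), a mean of -1.40 ± 1.38 (SD, n = 3) that was -0.84 without replicate 2 and -2.17 without replicate 3. GCN3 and GCD2, of the same complex, had values on replicates 2 and 3, -1.23 and -0.60 for GCN3 and -0.70 and 0.07 for GCD2. GCN20, whose product works with Gcn1 on Gcn2, was at -0.83, -0.77 and -0.67 (limma adjusted p = 0.101), and YIH1, an inhibitor of that step, at -0.05, 0.26 and 0.37 (0.655). On replicate 2 all 8 of these eIF2 and eIF2B genes were below 0, where all measured histidine genes but HIS6 were above it. Of all 3802 features tested, 1763 were above 0 on that array.

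PCL5, a cyclin gene whose product directs the turnover of Gcn4 and which is itself a known Gcn4 target, was the single gene of this list at least 1 log2 unit higher on replicate 2 than on both other arrays. It was at -0.13, 3.17 and 0.72 on replicates 1 to 3, the 24th highest of 5152 features on replicate 2. Its mean of 1.25 ± 1.72 (SD, n = 3) did not pass (limma adjusted p = 0.205) and was 0.29 without replicate 2. The remaining genes of the list that act on Gcn4 protein or with it, and GCD10, lay between -1.40 (GCN5 on replicate 3) and 0.56 (PHO85 on replicate 2), and none passed. The kinase gene PHO85 was at 0.53, 0.56 and -0.60 on replicates 1 to 3, and the kinase gene SSN3 at 0.10, -0.44 and -0.16. The ubiquitin ligase gene CDC4 was at 0.37, -0.24 and 0.11, the acetyltransferase gene GCN5 at -0.33, -0.32 and -1.40, and GCD10, a tRNA methyltransferase gene, at -0.08, -0.39 and -0.94.

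**Figure D3:**
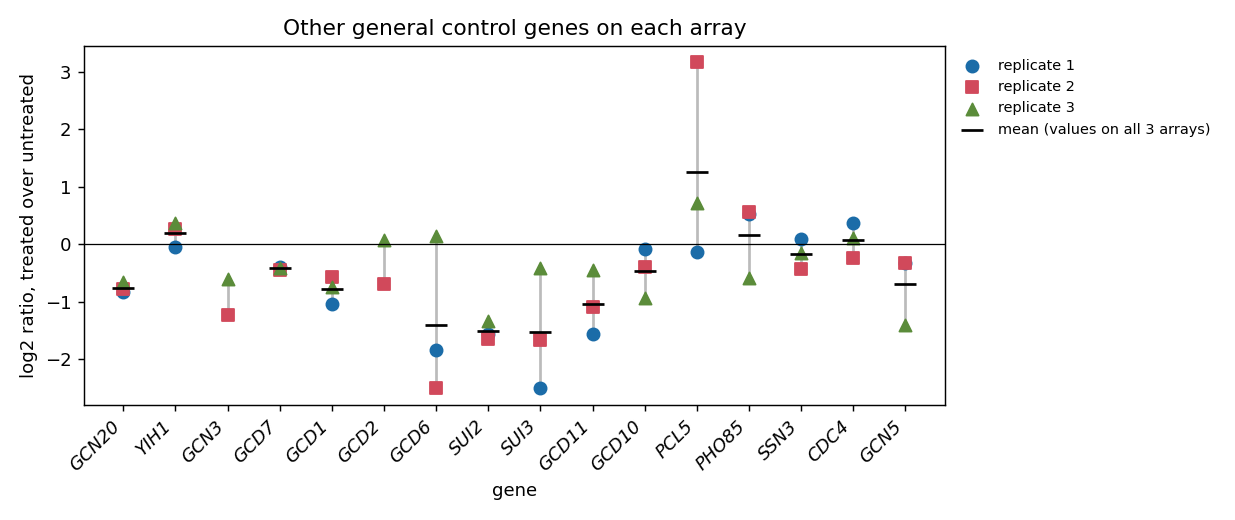
Log2 ratio of treated over untreated cells (vertical axis) for the other general control genes with at least 1 value; symbols are the 3 arrays, grey lines join the lowest and highest value, and black bars are means of genes with values on all 3 arrays. SUI2 lies at -1.34 to -1.65 on all arrays, and PCL5 reaches 3.17 on replicate 2 alone.

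Other Gcn4-controlled pathways were set beside histidine to show where it differed. Of the 35 genes measured on all arrays in the arginine, branched-chain, lysine, aromatic and homoserine and threonine lists, 29 were at least 1 log2 unit higher on replicate 2 than on both other arrays (5.39% of all features), and 18 were positive on replicate 2 alone (7.10%). LEU2 rose, at a mean of 1.90 ± 0.28 (limma adjusted p = 0.0249), and 34 did not pass (3.39% of all features passed upward). For LEU2 the limma adjusted p was 0.0601 without replicate 3 and 0.0718 without replicate 1, where 0% and 0.289% of all features passed. The median difference between replicate 2 and the mean of the others was 2.29 over the 35 genes, against 2.75 for the 5 histidine genes. The histidine genes therefore shared higher values on replicate 2 with most genes of these lists, and no test of a difference in size was made. The split in sign was held by 0 of 4 arginine, 7 of 10 branched-chain, 4 of 8 lysine, 5 of 9 aromatic and 2 of 4 homoserine and threonine genes.

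On replicate 2 the medians of all 5 lists were above 0, as that of histidine was. Lysine genes had array medians of -1.12, 2.04 and -0.14 over 8 genes, and LYS1, with the largest mean of that list, was at 0.73, 3.29 and 0.31; its mean of 1.44 ± 1.62 (limma adjusted p = 0.137) was 0.52 without replicate 2. Arginine genes had 0.39, 2.30 and 0.17 over 4 genes, so their medians on replicates 1 and 3 were above 0 where those of histidine were below; ARG1, the argininosuccinate synthetase gene, was at 0.49, 5.50 and 0.22. Branched-chain genes had -0.94, 1.27 and -0.74 over 10 genes, and aromatic genes -0.43, 1.44 and -0.39 over 9, with ARO7, the chorismate mutase gene, at -0.43, 0.03 and 2.84. The mean of ARO7 (0.81 ± 1.77, limma adjusted p = 0.399) was -0.20 without replicate 3, the array on which it was highest. Homoserine and threonine genes had -1.18, 1.14 and -0.50 over 4, with THR1, the homoserine kinase gene, at -1.91, -0.14 and -1.38 (limma adjusted p = 0.0987).

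Purine ADE genes, which share the activators Bas1 and Pho2 with several histidine genes, were below 0 on replicate 2 as well. Their array medians were -1.51, -1.07 and -1.40 over 7 genes, and 4 of the 7 fell (4.47% of all features passed downward). ADE13 fell by 2.26 ± 1.06 on the log2 scale, ADE2 by 2.18 ± 0.59 and ADE4 by 2.11 ± 0.92 (limma adjusted p = 0.0289, 0.0249 and 0.0281), and ADE6 was the other. The count was 0 without replicate 1, 0 without replicate 3 and 5 without replicate 2. Of all features, 0.289%, 0% and 17.3% passed in these fits in either direction, and 9.97% passed downward without replicate 2. On replicate 1 the values of HIS1 (-1.49) and HIS6 (-1.43) lay within the range of the ADE genes and that of HIS4 (-2.88) below it. HIS7 (-1.05), HIS5 (0.43) and HIS2 (0.52) lay above that range. On replicate 2 every measured histidine gene but HIS6 lay above every ADE gene.

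**Figure D4:**
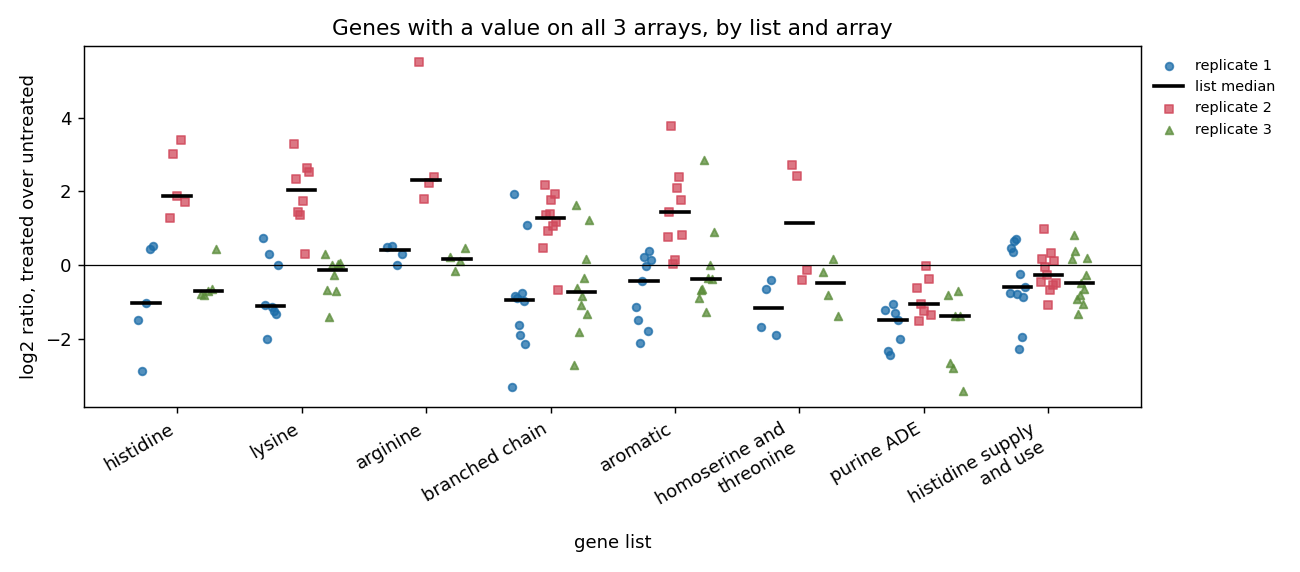
Log2 ratio of treated over untreated cells (vertical axis) of each gene with a value on all 3 arrays, by gene list and array; symbols are genes and black bars list medians. On replicate 2 the histidine median is 1.87 and the lysine median 2.04, while the purine ADE median is -1.07.

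The genes nearest to the mean profile of the 5 histidine genes (-0.89, 2.25 and -0.51 on replicates 1 to 3) were found by Euclidean distance over the 3 arrays. In order they were LYS2, of lysine synthesis, at a distance of 0.278 log2 units, ASN1, an asparagine synthetase gene, at 0.315, HOM3, the aspartate kinase gene, at 0.427, YOR385W at 0.479, the protein kinase gene CMK2 at 0.551 and the sulfite pump gene SSU1 at 0.591. LYS2 was at -1.08, 2.34 and -0.69, and ASN1 at -1.18, 2.19 and -0.61. None of the 6 passed the test of the mean (lowest limma adjusted p = 0.750, for SSU1). A likeness over 3 arrays rests on few points and carries no test.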

How the data were processed

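The authors deposited 1 table of log ratios per probe and array, used here as log2 values. Per the labels, LOWESS normalization used data whose flag was 0; probes without a value carry no number in the table. The scanner, the background correction, the log base and the direction are not given in the sources used here. A natural log would make each fold larger. Signal over background is unknown without intensities, and the 3 arrays limit the precision.

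Of 6272 probes, 5308 had 1 gene symbol in the platform annotation, 0 had several and 964 had none. Entrez identifiers of 5304 matched the R64 gene table, used for names only. Probes were averaged within each array for 88 genes that had several; for 65 of these genes the deposited values were identical between probes. Features measured on every array, 3802 in all, were tested against 0 with lmFit and eBayes (limma 3.58.1, R 4.3.3, intercept only, two-sided, 5.10 prior degrees of freedom), with Benjamini-Hochberg adjustment over all features and a threshold of 0.05. The procedure was tested on simulated data. SDs are over the 3 arrays. The labels call the arrays independent biological samples; whether each untreated RNA had its own culture was not stated.

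The genes and lists were chosen with earlier results of these data known. Named genes are the 9 members, every measured gene of the histidine supply and general control lists, up to 3 called members of each other list or else the one with the largest absolute mean, and the 6 nearest profiles. Alternatives were array centring, a common median absolute deviation, quantile normalization, values on at least 2 arrays, robust, weighted and no moderation, subtraction of the median of print sub-grids (32 of 14 by 14 spots, inferred from probe numbers), the first listed probe, a threshold of 0.01 and leaving out each array.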

Additional observations from a re-analysis of the deposited data

How the results depend on the processing

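Under the 10 alternatives that kept all arrays, 58 of 60 means of the 6 histidine and regulator genes kept their direction and their side of the threshold, and 0 of the 6 genes passed. Leaving out 1 array in turn gave 0 to 2 histidine and regulator genes past the threshold and a median of the histidine genes of -0.88 to 1.08. Over the other lists 0 to 19 genes were called, against 6 with all arrays. Of all 3802 features, 0 to 657 passed in these fits, against 299 with all arrays. Over the arrays left out, means ranged from -1.14 to 0.23 for HIS1, -1.85 to 1.10 for HIS4, -0.88 to 0.58 for HIS7, -0.12 to 1.91 for HIS5 and -0.62 to 0.14 for GCN4. They ranged from -0.49 to 0.29 for PHO2, -0.81 to 0.21 for ADE3, -0.66 to 0.042 for PRS2, -0.032 to 0.55 for PHO85 and -0.065 to 0.24 for CDC4. Among the nearest profiles they ranged from -0.89 to 0.83 for LYS2, -0.90 to 0.79 for ASN1, -0.74 to 0.88 for HOM3, -0.80 to 0.80 for YOR385W, -0.72 to 0.94 for CMK2 and -0.79 to 0.98 for SSU1. None of these means but those of HIS1 and HIS4 without replicate 2 passed. With no moderation and at a threshold of 0.01, 0 genes of the other lists passed, where 1 and 0 of all 3802 features did. A common median absolute deviation turned HIS4 to 0.017, and subtracting sub-grid medians turned GCN4 to 0.18, CDC4 to -0.12 and ASN1 to -0.19, none of them called; the cause was not tested. SUI3 joined SUI2 past the threshold, making 2 general control genes, with quantile normalization (limma adjusted p = 0.0449), robust moderation (0.0455) and sub-grid medians subtracted (0.0317), where 10.9%, 10.5% and 10.3% of all features passed, against 7.86%. Each ratio already pairs treated with untreated RNA on 1 array, so the test of the ratios is paired within arrays. Whether each untreated RNA had its own culture was not stated, so the pairs may not be independent on that side. With 1 group of ratios there is no further replicate block to fit. Intensities were not analysed here, so what signal over background limits is unknown.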
